A study of Mus musculus with 2 samples.

Results

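The MHC class II genes were followed across the cancer, endothelial, stromal and immune cells of a mouse breast tumour and of the paired lymph nodes (LNs). The members were taken by symbol, 10 of the 22620 genes counted: H2-Aa, H2-Ab1, H2-Eb1, Cd74, H2-DMa, H2-DMb1, H2-DMb2, H2-Oa, H2-Ob and Ciita. All 10 were found once in the gene list of both libraries, and all had transcripts among the kept cells of both. The tumours were EO771-HEVM3, a derivative of the EO771 mouse breast cancer line that the study selected in mice for spread through high endothelial venules (HEVs), the vessels by which lymphocytes enter LNs. They grew in C57BL/6J mice, and both groups carried the same tumour. Each group was 1 droplet-based library of single-cell 3′ transcript counts (unique molecular identifiers, UMIs), 1 of primary tumours (PT) and 1 of LNs, each pooled from 6 mice. The labels give no age and assign no cell to a mouse, so differences between PT and LN could not be set against replicates and were not tested.

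MHC class II molecules present peptides from the endosomal route to CD4 T cells. H2-Aa and H2-Ab1 encode the chains of the I-A molecule, and H2-Eb1 encodes the beta chain of I-E, a molecule that C57BL/6 mice do not form because they lack its alpha chain. Cd74 encodes the invariant chain, which holds the groove closed until proteases trim it to the peptide CLIP. H2-DM, a dimer of the H2-DMa product with that of H2-DMb1 or H2-DMb2, then exchanges CLIP for other peptides, and H2-O, made from H2-Oa and H2-Ob, restrains H2-DM. Ciita encodes the transactivator that the other genes depend on. It binds no DNA itself but joins regulatory factor X, CREB and NF-Y on a promoter module of X and Y boxes. B cells, dendritic cells (DCs) and macrophages are the professional antigen-presenting cells, and interferon-γ can switch the module on in epithelial, endothelial and stromal cells.

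The promoters are shown first because the levels below part genes that share this module. The RefSeq promoter table (GRCm38.p6) held 8 entries for 7 of the 10 members, including 2 for H2-DMa, and none for H2-Ab1, Ciita and Cd74. Each entry was searched on both strands for a Y box core (TGATTGG, which holds the inverted CCAAT letters) and an X box core (AACNNATG). The Y core was in 6 of the 8 member entries and in 7.82% of all 32851 promoters of the same length, and the X core in 4 of 8 and 8.86%. Both cores lay on 1 strand, with first bases 26 to 29 bases apart, in only 6 promoters of the table (0.0183%). These were H2-DMb1, H2-DMb2, H2-Ob and H2-Eb1, from which the spacing was read, together with H2-Eb2 and BC051142. The 150 bases before the start are printed 5′ to 3′ on the gene's strand, with both cores in capitals, for these 4 members and for the 2 with a Y core alone. Neither core was found in the H2-DMa entries. The GENCODE models of H2-Oa, H2-Ob, H2-DMb1 and H2-DMb2 begin before the RefSeq start, so these windows overlap a longer model.
H2-Eb1, chr17:34305717-34305866, plus strand: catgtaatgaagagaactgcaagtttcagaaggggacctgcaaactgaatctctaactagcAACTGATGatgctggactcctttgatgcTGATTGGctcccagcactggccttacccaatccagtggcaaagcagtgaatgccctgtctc
H2-Ob, chr17:34238755-34238904, plus strand: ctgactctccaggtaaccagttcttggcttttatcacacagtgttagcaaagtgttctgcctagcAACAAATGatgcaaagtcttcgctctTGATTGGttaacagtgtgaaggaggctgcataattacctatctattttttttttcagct
H2-DMb1, chr17:34153041-34153190, plus strand: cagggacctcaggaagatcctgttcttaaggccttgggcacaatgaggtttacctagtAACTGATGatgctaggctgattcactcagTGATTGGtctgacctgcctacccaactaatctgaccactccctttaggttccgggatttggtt
H2-DMb2, chr17:34145099-34145248, plus strand: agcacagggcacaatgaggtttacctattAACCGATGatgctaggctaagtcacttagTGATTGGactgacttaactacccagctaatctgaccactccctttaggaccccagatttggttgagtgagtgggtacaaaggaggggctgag
H2-Oa, chr17:34092229-34092378, plus strand: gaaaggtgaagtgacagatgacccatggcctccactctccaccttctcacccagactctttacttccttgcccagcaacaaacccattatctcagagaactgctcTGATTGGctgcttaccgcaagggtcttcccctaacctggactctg
H2-Aa, chr17:34287824-34287973, minus strand: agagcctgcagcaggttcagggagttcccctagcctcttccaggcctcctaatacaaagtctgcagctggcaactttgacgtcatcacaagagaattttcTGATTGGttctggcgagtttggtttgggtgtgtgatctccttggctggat

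H2-DMb1 and H2-DMb2 are neighbouring copies that encode alternative beta chains of H2-DM. Over the 43 bases from just before the X core to the end of the Y core their promoters differed at 5 positions. They are set side by side because their levels parted between cell types. Counted from 1 at the 5′ end of this stretch, with the base of H2-DMb1 first, the differences were G6T, T11C, G26A, T28G and C34T.
H2-DMb1 stretch: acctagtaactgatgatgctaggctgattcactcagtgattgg
H2-DMb2 stretch: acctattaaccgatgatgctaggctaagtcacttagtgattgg

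The 2 genes could be counted apart. In the GRCm38 gene models, 12.7% of the 90-base windows in the last 500 bases of the H2-DMb1 transcript were also found in H2-DMb2, and no window of the other 9 members occurred in another H2 gene. The 8 H2 members lay on chromosome 17, from H2-Oa at chr17:34092340-34095234 to H2-Eb1 at chr17:34305867-34316674, and Ciita at chr16:10480059-10528418. H2-DMa and Cd74 shared their strand with overlapping models, CR974462.3 and Mir5107, so their counts could include reads of those models. Models on the other strand overlapped H2-Eb1, H2-DMa, H2-Oa and Ciita, the last with Dexi.

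After limits on cells and removal of doublets, 8756 PT cells (median 9383 UMIs) and 9689 LN cells (median 2324 UMIs) remained. The members took 0.118% of the kept PT UMIs (124921) and 0.770% of those of the LN (387477). Cells of both libraries were clustered together without the members, and 34 of 37 clusters took a class name from marker genes that include no class II gene. A class name stands for cells that resemble the type, and HEC-like cells are those with the genes of HEV endothelium. In 15 of 20 sets of class and library, every marker was at least 2-fold above the other cells, and no set missed more than 1. The libraries shared 47 cell barcodes, 31 of them among the kept cells. Levels are UMIs summed over a class per 1000000 UMIs of that class (CPM). The chemistry counts transcript ends, so no division by length was made when genes are set side by side. Bracketed values are 95% intervals, exact Poisson for CPM and exact Clopper-Pearson for shares, and cover counting error only.

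B cells and DCs of the LN held the highest levels. The sum of the 10 members was 32766 CPM [32652 to 32880] in 4614 LN B cells, which held 82.3% of all member UMIs of the kept LN cells. It was 42409 CPM in the 92 LN DCs outside the mature cluster, called other DCs here. Next came 23 LN macrophages at 23908 CPM, 58 plasmacytoid DCs (the interferon-producing DCs) at 14949 CPM, and 106 LN DCs led by Fscn1, a gene of mature DCs, at 13974 CPM. LN monocytes were at 11780 CPM and plasma cells, the antibody-secreting descendants of B cells, at 5028 CPM. The intervals of these 7 sums did not overlap, but a sum weights cells by their UMIs. By the median cell, LN macrophages (7138 CPM, with 3 of the 23 cells holding 50.9% of the member UMIs) lay below plasmacytoid DCs (15860 CPM) and Fscn1-led DCs (7942 CPM). LN monocytes (803 CPM) likewise lay below plasma cells (3503 CPM).

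In the PT, where only 9 B cells were kept, the sum was 9130 CPM in 36 Fscn1-led DCs, 6903 CPM in 553 monocytes and 4876 CPM [4798 to 4955] in 703 macrophages. The highest PT sum, 22414 CPM, was in 112 cells of an unnamed cluster led by Mgl2, Ccl17 and Ear2, which had markers of more than 1 class. The 42 unnamed LN cells were at 13859 CPM, and 95.2% of them had B cell RNA, taken here as the UMIs of Cd79a, Cd79b and Ms4a1 summed. Cancer cells were at 919 CPM in the PT and 425 CPM in the LN. The remaining classes lay from 139 CPM (PT T cells) to 1372 CPM (LN neutrophils). Of the LN neutrophils 4 of 39 held 89.6% of the member UMIs, and the median cell was at 0 CPM. B cell RNA was at 369 CPM in LN neutrophils, whose member UMIs were 0.549 times what it would carry at the ratio of LN B cells. In plasma cells it was at 1051 CPM and was seen in 98.2% of cells, and the same value was 0.706 times. Plasma cells descend from B cells, so their own B cell RNA cannot be told apart from that of other cells. Among the remaining classes, the interval of PT endothelial cells (332 CPM [279 to 394]) overlapped those of LN T cells (320 CPM [310 to 330]) and PT fibroblasts (379 CPM [351 to 408]), so counting error alone covers their order. These are not the only close classes, and PT natural killer (NK) cells had only 55 member UMIs, so no further order was read.

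**Figure D1:**
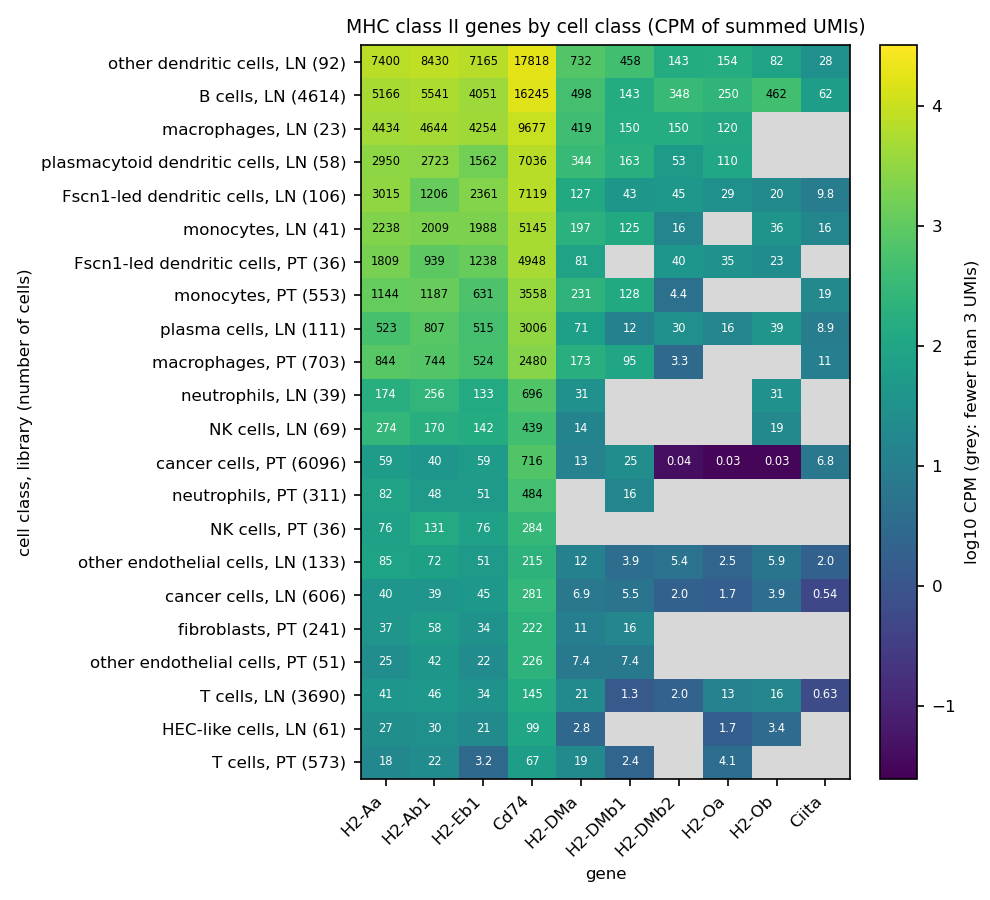
Level of each of the 10 genes (columns) in each cell class and library (rows, number of cells in brackets, ordered by the summed level), as CPM of summed UMIs printed in the cells and as log10 CPM in colour, with grey for fewer than 3 UMIs. Cd74 is the highest gene in every row, and in PT cancer cells H2-DMb1 is at 25.2 CPM while H2-DMb2, H2-Oa and H2-Ob have 4, 3 and 3 UMIs.

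The classical genes moved together across classes. Over the 22 groups of class and library with at least 20 cells, the log2 level of H2-Aa, H2-Ab1, H2-Eb1 and Cd74 correlated with the sum of the other members at r = 0.98, 0.98, 0.99 and 0.98. For H2-DMa, H2-DMb2 and H2-DMb1 r was 0.93, 0.88 and 0.83, and it was lowest for H2-Oa (0.73), H2-Ob (0.66) and Ciita (0.60). These values describe groups that share a library and its depth. H2-O had 4 UMIs in PT macrophages and 0 in PT fibroblasts, and Ciita 0 in HEC-like cells, so sparse counts also enter their r.

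In LN B cells H2-Aa was at 5166 CPM, H2-Ab1 at 5541 CPM and H2-Eb1 at 4051 CPM, and with cells thinned to 1000 UMIs 97.2% to 98.5% of them still had a UMI of each. Other LN DCs had 7400, 8430 and 7165 CPM of the same genes. The ratio of H2-Aa to H2-Ab1 UMIs was 0.93 [0.92 to 0.94] in B cells and 0.88 [0.85 to 0.91] in other DCs. It was 2.50 [2.28 to 2.75] in LN Fscn1-led DCs and 1.93 [1.59 to 2.34] in those of the PT. Mature DCs of both tissues thus had less H2-Ab1 than H2-Aa RNA, at 1206 against 3015 CPM in the LN and 939 against 1809 CPM in the PT. H2-Eb1 was also above H2-Ab1 in LN Fscn1-led DCs, at a ratio of 1.96 [1.78 to 2.16], against 0.73 [0.72 to 0.74] in B cells.

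Among the DCs of the LN, 39 cells led by Xcr1 and Clec9a, genes of cross-presenting DCs, had the highest sum of the series, 46220 CPM, and 53 cells led by Cd209a had 37697 CPM. A pair of Fscn1-led clusters had 13445 and 11422 CPM. The B cell clusters with Ighd among their leading genes lay between 33069 and 35985 CPM. The 83 cells of the cluster led by Rgs13 and Mef2b, genes of germinal centre B cells, were at 16375 CPM.

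Cd74 was the highest member in every group shown. It was at 16245 CPM in LN B cells (99.8% of cells with a UMI after thinning) and 17818 CPM in other LN DCs, and made up 49.6% and 42.0% of their member UMIs. In PT macrophages it was at 2480 CPM (50.9%). In PT cancer cells its share was 77.9%, with 4.53 Cd74 UMIs for each classical UMI against 1.10 in B cells and 1.17 in PT macrophages. Plasma cells lay between, at 3006 CPM and 59.8%.

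The H2-DM genes, the peptide editors, differed between classes in the share of each beta chain gene. H2-DMa was at 498 CPM in LN B cells, 732 CPM in other LN DCs and 173 CPM in PT macrophages. H2-DMb2 gave 70.9% [69.6 to 72.2] of the H2-DMb UMIs in LN B cells (3388 of H2-DMb2 and 1389 of H2-DMb1), and 83.5% [77.4 to 88.5] in the germinal centre-like cluster. It gave 3.34% [1.61 to 6.06] in PT macrophages (10 against 289 UMIs) and 3.36% [1.10 to 7.66] in PT monocytes. In PT cancer cells it gave 0.164% [0.0448 to 0.420], 4 UMIs against 2431. H2-DMb2 was thus the more abundant H2-DMb gene in LN B cells, and H2-DMb1 in PT macrophages, monocytes and cancer cells. LN macrophages stood apart from those of the PT at 50% [18.7 to 81.3], from 5 UMIs of each gene and with B cell RNA at 330 CPM. Both promoters hold the X and Y cores printed above.

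Most DCs of the LN lay between. H2-DMb2 was 8.04% [4.83 to 12.4] of H2-DMb in the Xcr1-led cells (18 against 206 UMIs) and 41.3% [34.4 to 48.4] in the Cd209a-led cells (83 against 118), so the DC clusters differed beyond counting error. B cell RNA moved with this difference, at 10.2 CPM in the Xcr1-led and 234 CPM in the Cd209a-led cells, and its part was not tested. It was 24.6% [14.5 to 37.3] in plasmacytoid DCs and 51.1% [35.8 to 66.3] in LN Fscn1-led DCs. Of these 106 cells, 8 held 13 of the 23 H2-DMb2 UMIs and 17 of the 32 B cell UMIs, and the other 98 were at 35.7% [18.6 to 55.9]. In PT Fscn1-led DCs it was 77.8% [40.0 to 97.2], from 7 against 2 UMIs. The Mgl2-led PT cluster, with 23.7% [18.3 to 29.7] (54 against 174 UMIs), stood apart from the PT macrophages. Its B cell RNA was 7.37 CPM.

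**Figure D2:**
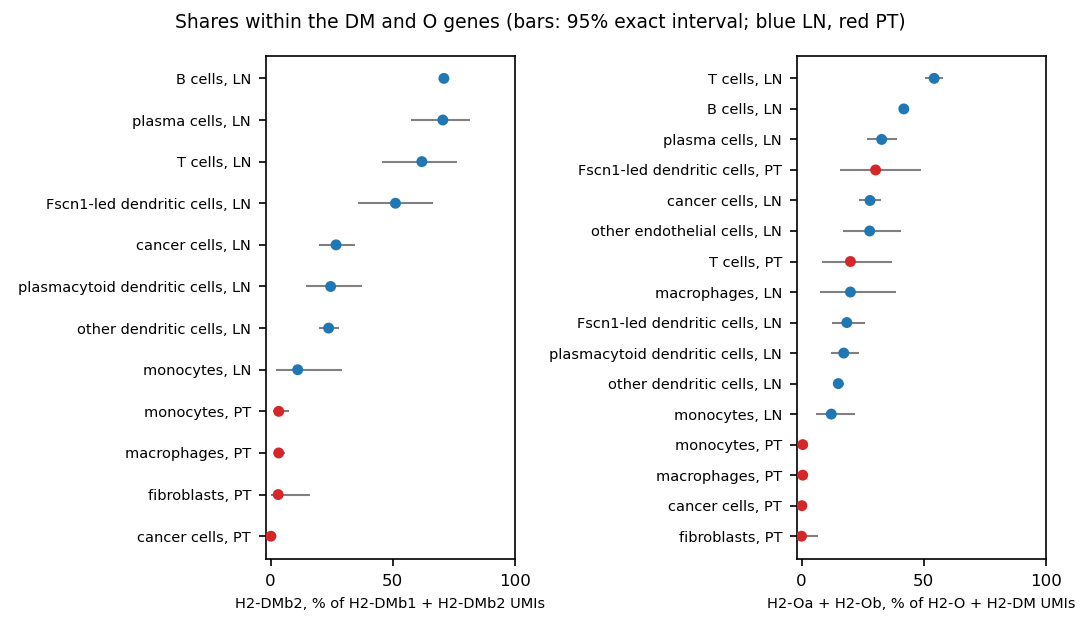
Share of H2-DMb2 in the H2-DMb UMIs and share of H2-O in the H2-O and H2-DM UMIs, in percent, by cell class and library, with exact 95% Clopper-Pearson intervals that cover counting error only. LN B cells sit at 70.9% and 41.8%, and PT cancer cells at 0.164% and 0.163%.

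H2-O, the restraint on H2-DM, was found mostly in B cells. H2-Oa was at 250 CPM [240 to 260] and H2-Ob at 462 CPM in LN B cells, which held 85.4% and 90.3% of the UMIs of these genes in the kept LN cells. H2-O made up 41.8% [41.1 to 42.6] of the H2-O and H2-DM UMIs in B cells, 27.1% [23.8 to 30.6] in the germinal centre-like cluster and 15.05% [12.99 to 17.3] in other LN DCs. In LN T cells, it was 54.3% [50.4 to 58.1]. In PT macrophages it made up 0.484% [0.132 to 1.23], from 4 UMIs against 823. The pair also changed its order. H2-Ob exceeded H2-Oa in B cells, at a ratio of 1.85 [1.76 to 1.94], and H2-Oa exceeded H2-Ob in other DCs, at 0.532 [0.380 to 0.738]. Plasmacytoid DCs had 31 UMIs of H2-Oa and 2 of H2-Ob.

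Ciita, the transactivator, gave few UMIs everywhere. Among the named classes it was highest in LN B cells at 62.1 CPM [57.2 to 67.2], and after thinning 5.90% of B cells had a Ciita UMI. The germinal centre-like cluster, with the lowest sum of the B cell clusters, had 75.8 CPM (53 UMIs). The Mgl2-led PT cluster had 51.6 CPM, other LN DCs 28.3 CPM, PT monocytes 18.6 CPM, PT macrophages 10.6 CPM and plasma cells 8.92 CPM. PT cancer cells at 6.83 CPM held 660 Ciita UMIs, 88.1% of those in the kept PT cells, beside 91.2% of all UMIs. No Ciita UMI was seen in the 58 plasmacytoid DCs, whose other members summed to 14949 CPM, or in the 23 LN macrophages. At 3 counts these 0 counts allow up to 10.7 and 89.9 CPM, so in LN macrophages the depth could not show a level like that of B cells. The plasma cell clusters had 12 Ciita UMIs in the one led by Ighg1 and Iglc1 and 1 in the one led by Ighg2c, with summed members of 5288 and 4717 CPM.

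The partners of Ciita on the promoter were present in all classes examined. All 7 genes of that list (Rfx5, Rfxap, Rfxank, Nfya, Nfyb, Nfyc and Creb1) had UMIs in LN B cells (8.22 to 57.7 CPM), other LN DCs (1.41 to 49.5 CPM), PT cancer cells (2.77 to 45.7 CPM), LN T cells (3.30 to 55.5 CPM) and HEC-like cells (4.49 to 133 CPM). The lineage regulators in the list of inducers followed cell type. Pax5, the B lineage factor, was at 260 CPM in LN B cells, and Spi1, the myeloid factor PU.1, was at 472 CPM in other LN DCs and 93.8 CPM in B cells. Ctss, which encodes the protease that trims the invariant chain in professional cells, was at 2004 CPM in PT macrophages, 526 CPM in other LN DCs and 361 CPM in LN B cells. It was at 10.4 CPM in PT cancer cells.

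For turnover at the surface, Marchf1 encodes a ligase that removes class II molecules and Cd83 opposes it in mature DCs. Cd83 was at 617 CPM in LN and 691 CPM in PT Fscn1-led DCs, where Marchf1 had 3 and 0 UMIs. LN B cells had 336 CPM of Cd83 and 40.5 CPM of Marchf1, and PT macrophages 194 and 50.9 CPM. Of the further class II loci, H2-Eb2, whose promoter has the same spaced cores, was at 86.3 CPM in LN B cells, 113 CPM in LN Fscn1-led DCs and 25.4 CPM in other LN DCs. H2-Ea, the alpha chain gene of I-E, had 3 UMIs in all LN B cells.

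Across the tumour, PT cancer cells made up most of the class II RNA, though less than their share of all RNA. These 6096 cells held 71.1% of the member UMIs and 91.2% of all UMIs of the kept PT cells, at 919 CPM. Cd74 was at 716 CPM [711 to 721] and was seen in 85.0% of them, or 41.3% after thinning to 1000 UMIs. The classical genes were low beside it, with H2-Aa at 58.9 CPM, H2-Ab1 at 39.8 CPM and H2-Eb1 at 59.5 CPM. H2-DMb1 was at 25.2 CPM and H2-DMa at 12.8 CPM, while H2-DMb2, H2-Oa and H2-Ob had 4, 3 and 3 UMIs in all. B cell RNA in these cells was 0.538 CPM and the markers C1qa, C1qb, C1qc and Lyz2 of macrophages summed to 7.89 CPM, against 5437 CPM in PT macrophages. At the ratio of members to these markers in macrophages, PT cancer cells had 129.8 times the class II UMIs that the macrophage markers would carry.

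The level varied between cancer cells. No member UMI was found in 11.35% of PT cancer cells, the median cell was at 617 CPM, 34.2% exceeded 1000 CPM, and the highest 10% of cells held 39.1% of the UMIs. The clusters led by Cenpf and by Cyp1a1 were at 1152 and 1239 CPM, the largest, led by Mt4 and Elf3, at 856 CPM, the shallow cluster led by Rps26 at 663 CPM, and the cluster led by Tff1 and Tff2 at 548 CPM. PT cancer cells with a Ciita UMI had more of the other members. Among cells of 10000 to 20000 UMIs, 154 with a Ciita UMI had 1586 CPM [1536 to 1637] of the other 9 members, and 1991 without had 803 CPM [793 to 813]. Their Irf1, an interferon-induced factor, was at 230 against 138 CPM. Within single clusters the other members were at 1824 against 830 CPM in the Mt4-led and 1510 against 1146 CPM in the Cenpf-led cells, and Irf1 at 396 against 159 CPM and 149 against 140 CPM. Cells were grouped here by a measured member, so these values are a description.

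**Figure D3:**
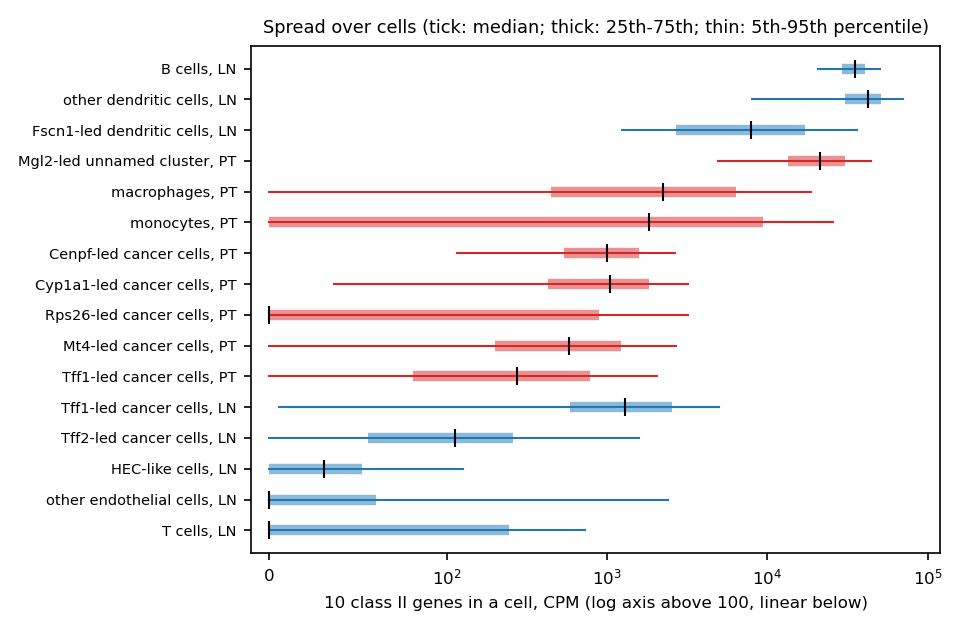
Summed class II level per cell in CPM (log axis above 100, linear below) for cancer cell clusters named by a leading gene and for other classes, with LN in blue and PT in red. Ticks are medians, thick bars the 25th to 75th and thin lines the 5th to 95th percentiles over cells, which are not replicates. The Tff1-led cluster has a median of 274 CPM in the PT and 1289 CPM in the LN, and the largest LN cluster, led by Tff2 and Id1, has 113 CPM.

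The 606 LN cancer cells had a lower sum, 425 CPM, a log2 ratio of LN over PT of -1.11 [-1.14 to -1.08]. Their median depth was 35079.5 UMIs, against 14016.5 UMIs in the PT. At 10000 to 20000 UMIs and without a Ciita UMI, the order was the opposite for the other 9 members. There 40 LN cells were at 1376 CPM [1285 to 1472], against 803 CPM [793 to 813] in 1991 PT cells. Of these 40 cells, 20 were in the cluster led by Tff1 and Tff2. The part of depth was not tested. Of 7 members with at least 100 UMIs in either library, 3 were lower in the LN by 2-fold or more and 0 were higher. Of all 10721 genes with as many UMIs, 9.39% were lower and 4.58% higher by 2-fold. The median log2 ratio was -0.89 for these members and -0.18 for all genes. Cd74 was at 281 against 716 CPM (log2 ratio -1.35 [-1.39 to -1.31]), H2-DMb1 at 5.51 against 25.2 CPM had a ratio of -2.19 [-2.48 to -1.92], and Ciita, with 11 UMIs in the LN and 660 in the PT, had -3.60 [-4.67 to -2.81]. The classical genes were closer, with -0.55 for H2-Aa, -0.41 for H2-Eb1 and -0.02 [-0.14 to 0.09] for H2-Ab1.

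B cell RNA moved with this comparison, at 30.6 CPM in LN and 0.538 CPM in PT cancer cells. H2-DMb2, H2-Oa and H2-Ob, low in PT cancer cells, had 41, 34 and 80 UMIs in those of the LN. The 75 LN cancer cells with at least 2 UMIs of the B cell genes held 44.1% of the member UMIs, and the other 531 cells were at 272 CPM. Without cells of 2 or more B cell UMIs the log2 ratio of the sum was -1.75.

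The LN cancer cells were also of other clusters than those of the PT. The Tff2-led cluster held 84.3% of them and 1 PT cell, and the Mt4-led, Cenpf-led and Tff1-led clusters held 46.2%, 24.7% and 21.2% of PT cancer cells. Only the Tff1-led cluster had at least 20 cells in both libraries. In it the 62 LN cells were at 1796 CPM and the 1293 PT cells at 548 CPM, the opposite order to the whole class. Its LN cells had 1285 CPM of Cd74, 40.4 CPM of H2-DMb1 and 4.25 CPM of Ciita (6 UMIs), with H2-DMb2 at 1.72% [0.0436 to 9.24] of H2-DMb. The Tff2-led LN cells were at 299 CPM, with H2-DMb2 at 52.3% [39.5 to 64.9]. At the LN B cell ratio of members to B cell RNA, the Tff1-led LN cells had 10.1 times [7.33 to 14.3] the class II UMIs that their B cell RNA would carry, and the Tff2-led cells 1.43 times [1.32 to 1.56]. These intervals cover only the count of the B cell RNA.

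The other genes of the pathway in cancer cells were read against the same background. The list of inducers is not counted here, and its member Irf1 was at 57.5 CPM in the LN and 143 CPM in the PT (-1.31). The 7 partners of Ciita had 0 in either direction, and the 6 lysosomal genes had 1 in each. Ctss was lower (3.15 against 10.4 CPM) and Ctsl, another protease gene of this list, higher (442 against 204 CPM). Of the Cd74 partners, Cd44 was lower (268 against 558 CPM) and its ligand Mif was at 735 against 531 CPM. None of the genes for turnover or of the further class II loci had enough UMIs. The class I genes, given for contrast, did not move as one group. B2m was lower (620 against 1408 CPM), H2-D1 was at 679 against 732 CPM, and H2-K1 was higher (36.0 against 6.24 CPM). T cell RNA, the UMIs of Cd3e, Cd3d, Cd3g, Trac and Trbc2 summed, was at 75.1 CPM in LN and 21.5 CPM in PT cancer cells. In LN T cells it was at 3338.5 CPM, and the class I genes there lay from 1620 to 2227 CPM. The part of T cell RNA in the class I levels was not tested.

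**Figure D4:**
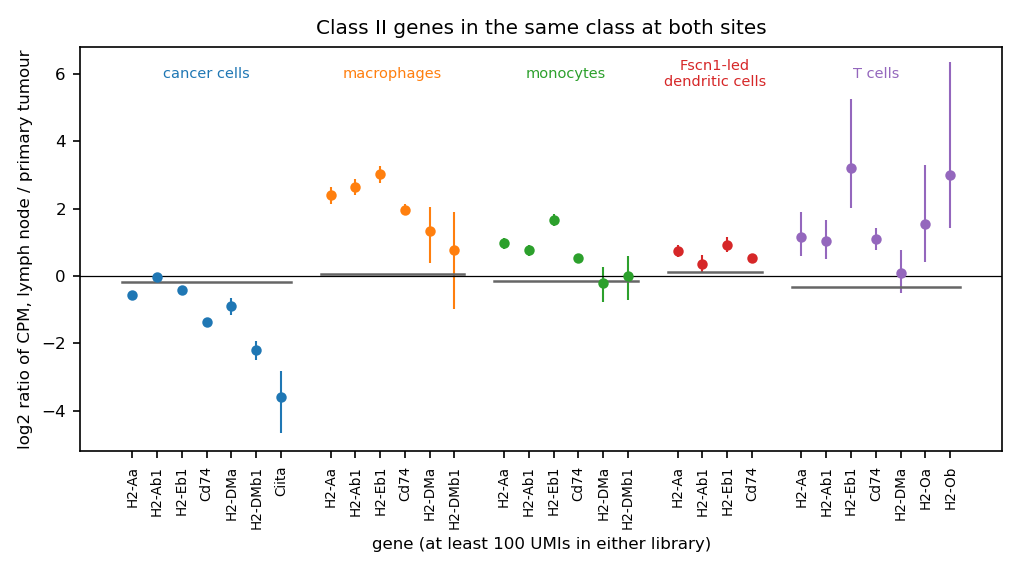
Log2 ratio of LN over PT CPM for each member with at least 100 UMIs in either library, by cell class, with exact 95% intervals for the split of the counts and the median of all genes tested in that class as a line. In cancer cells Ciita (-3.60), H2-DMb1 (-2.19) and Cd74 (-1.35) lie lowest, and in macrophages H2-Eb1 (3.03) lies highest.

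Myeloid cells of the LN and PT differed by class, with the largest median ratio of the members in macrophages. In macrophages 5 of 6 members tested were at least 2-fold higher in the LN, against 14.6% of all genes, with a median log2 ratio of 2.18 against 0.07 over all genes. H2-Eb1 was at 4254 against 524 CPM (3.03), H2-Ab1 at 4644 against 744 CPM (2.65), H2-Aa at 4434 against 844 CPM (2.40) and Cd74 at 9677 against 2480 CPM (1.97). The 23 LN macrophages were few, and without their highest cell the sum was 21544 CPM in place of 23908 CPM. In monocytes 1 of 6 was higher, against 4.87% of all genes, with H2-Eb1 at 1988 against 631 CPM (1.66 [1.47 to 1.84]) and a median of 0.65 against -0.14. The median monocyte went the other way, with a member sum of 803 CPM in the LN and 1825 CPM in the PT, and 5 of the 41 LN monocytes held 59.5% of their member UMIs. In Fscn1-led DCs 0 of 4 were higher, against 9.91% of all genes, with a median of 0.63 against 0.12. Over all DCs but the plasmacytoid 7 of 8 were higher, against 9.01% of all genes, with a median of 1.52 against 0.04, and 92 of the 198 LN cells but 5 of the 41 PT cells of this class were other DCs. In neutrophils Cd74 alone had enough UMIs, with a log2 ratio of 0.53 [0.10 to 0.93] against a median of -0.47 over all genes.

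H2-Eb1 had the highest ratio of the tested members in macrophages, monocytes and Fscn1-led DCs. B cell RNA was higher in the LN cells here too, at 330 against 2.64 CPM in macrophages, 156 against 1.77 CPM in monocytes and 62.4 against 28.8 CPM in Fscn1-led DCs. In neutrophils it was at 369 against 2.66 CPM, and their LN Cd74 UMIs were 0.562 times what it would carry at the B cell ratio. The class II UMIs of LN macrophages and monocytes were 10.7 and 11.2 times what this RNA would carry at the B cell ratio. The clusters differed as well, since 15 of the 23 LN macrophages were in the Cxcl5-led cluster, which in the PT had a sum of 2362 CPM, against 8257 CPM in the Ccl8-led. Of the 41 LN monocytes 40 were in the cluster led by Ace and Chil3. LN Fscn1-led DCs were mostly in another cluster (76 cells) than those of the PT (33 of 36).

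Endothelial cells had little class II RNA. HEC-like cells carry the genes of the HEV wall, and Cxcl10, which interferon induces, was among the leading genes of both their clusters. Their 61 cells, all from the LN, had 330 member UMIs, 185 CPM [166 to 206], with Cd74 at 98.8 CPM, H2-Ab1 at 29.7 CPM, H2-Aa at 27.5 CPM and H2-Eb1 at 20.8 CPM. Their sum was 106 CPM without the cell that had most member UMIs, and also 106 CPM with the libraries clustered apart. No UMI of Ciita or H2-DMb2 was seen, which at 3 counts allows up to 1.68 CPM each. Irf1 was at 15.7 CPM in them. The 133 other LN endothelial cells were at 457 CPM and the 51 PT endothelial cells at 332 CPM. The order of these groups depended on the limits on cells. With no upper limit on genes they were at 201 and 239 CPM, with HEC-like cells at 180.4 CPM, and with doublets kept they were at 308 and 520 CPM. H2-K1 of class I was at 260, 240 and 1489 CPM in the same groups.

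The class II RNA of LN endothelial cells was set against their B cell RNA. At the B cell ratio of members to B cell RNA, HEC-like cells had 0.798 times [0.622 to 1.04] and other LN endothelial cells 1.04 times [0.873 to 1.24] the UMIs that their B cell RNA would carry. The HEC-like value joins a cluster of 25 cells at 0.317 times [0.227 to 0.458] and one of 36 cells at 1.40 times [0.965 to 2.13]. The class II RNA was also held by few cells, since 7 of the 61 HEC-like cells had at least 2 UMIs of the B cell genes and held 274 of the 330 member UMIs. The other 54 were at 36.0 CPM [27.2 to 46.8]. In other LN endothelial cells 15 of 133 held 82.7%, among them all 4 Ciita UMIs, and the rest were at 98.1 CPM [83.5 to 115]. After thinning, Cd74 was seen in 5.23% of HEC-like, 11.0% of other LN endothelial and 5.92% of LN T cells, the last a type that in mice makes little class II. Median depths were 30825, 9266 and 2990 UMIs.

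**Figure D5:**
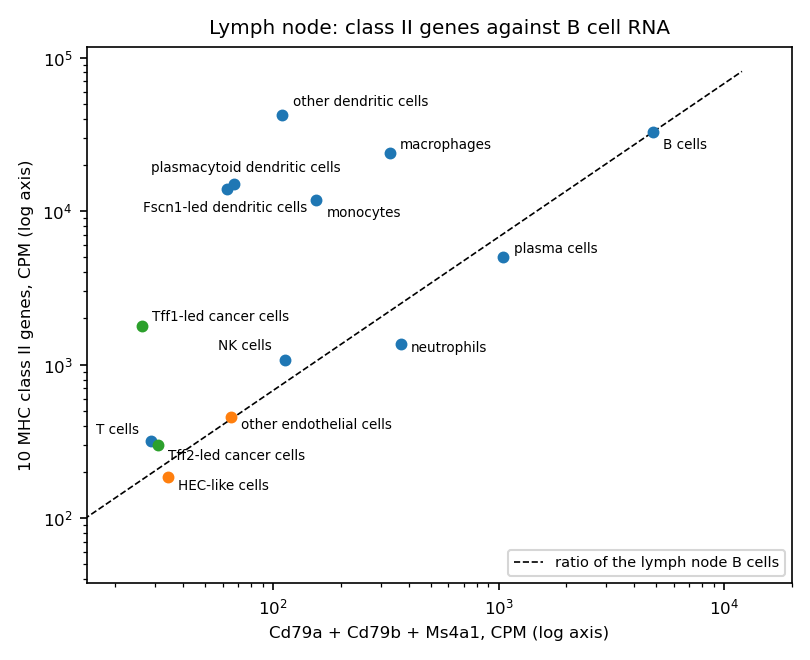
Summed class II level against the level of B cell RNA (Cd79a, Cd79b and Ms4a1), both in CPM on log axes, for cell classes of the LN (endothelial in orange, cancer clusters in green, others in blue), with a line at the ratio of LN B cells. HEC-like and other endothelial cells lie on or near the line at 0.798 and 1.04 times the ratio, and other DCs lie 56.8 times above it.

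LN T cells differed by gene. Their sum, 320 CPM, was 1.64 times [1.48 to 1.83] what their B cell RNA would carry. The classical genes and Cd74 were at 1.34 to 1.504 times, whereas H2-Oa was at 8.69 times [7.85 to 9.66], H2-DMa at 7.15 times [6.46 to 7.95] and H2-Ob at 5.88 times [5.31 to 6.54]. Without the 40 T cells that had at least 2 UMIs of the B cell genes, H2-Aa was at 20.6 CPM in place of 41.1 CPM. In the same cells H2-DMa was at 18.3 CPM (228 UMIs), H2-Ob at 14.5 CPM and H2-Oa at 12.1 CPM. The cluster with Foxp3, the regulatory T cell factor, among its leading genes was at 817 CPM and 2.55 times [2.09 to 3.15] its B cell RNA. In it 47 of 463 cells held 80.4% of the member UMIs, and the median cell was at 163 CPM. The Trdc-led cluster was at 870 CPM and 0.928 times [0.694 to 1.27], and the other LN clusters with over 100 cells lay between 194 and 258 CPM. In the Trdc-led cluster 10 of 100 cells held 91.2% of the member UMIs, and the median cell was at 0 CPM. Over all LN T cells 369 of 3690 held 80.6%.

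Against PT T cells, 6 of 7 members tested were at least 2-fold higher in LN T cells, where 6.07% of all genes were. H2-Eb1 was at 33.9 CPM in the LN and 3.25 CPM in the PT (4 UMIs), while H2-DMa, at 21.1 and 19.5 CPM, had a log2 ratio of 0.09 [-0.49 to 0.78]. B cell RNA was 28.7 CPM in LN and 2.44 CPM in PT T cells. Clusters differed too, with 86.9% of PT T cells in a Cd8a-led cluster that held 27 of the LN.

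Stromal cells of the PT had UMIs of epithelial keratins beside their class II RNA. Cd74 was at 226 CPM in PT endothelial cells and 222 CPM in fibroblasts, against 716 CPM in cancer cells. Of the endothelial cells 6 of 51 held 67.9% of the member UMIs, and of the fibroblasts 25 of 241 held 82.6%. The median cell of both had a member sum of 0 CPM, against 617 CPM in cancer cells. Krt8, an epithelial keratin, was at 429, 449 and 1751 CPM in the same groups, and Krt18 at 325, 361 and 1553 CPM. The macrophage markers summed to 14.9 CPM in the endothelial cells and 73.9 CPM in the fibroblasts, whose class II UMIs were 24.9 and 5.71 times what these would carry. H2-Eb1 per H2-Ab1 was 0.578 [0.417 to 0.795] in fibroblasts, 0.704 [0.660 to 0.751] in macrophages and 1.495 [1.44 to 1.56] in cancer cells. The part of cancer cell or macrophage RNA in these levels was not tested. Fibroblasts had 31 UMIs of H2-DMb1 and 1 of H2-DMb2.

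Among the other genes, the 5 whose log2(CPM + 1) levels over the 22 groups were most like the summed members, of 12326 genes measured, were Wdfy4 (r = 0.91), Ly86 (0.91), Rnase6 (0.91), Cd180 (0.89) and Ppfibp2 (0.86). The members themselves were left out of this ranking. Wdfy4 is known for cross-presentation in DCs, and Ly86 and Cd180 encode partners in a receptor complex of B cells and myeloid cells.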

How the data were processed

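The data were UMI counts per gene and cell from 1 PT and 1 LN library of 10x 3′ single-cell RNA. The authors deposited these raw counts as matrices, without normalisation. The file headers name Cell Ranger 5.0.0 and the submitters' processing notes 2.1.1, both with GRCm38, and the conflict was not settled. No per-sample column was left unused.

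Cells were kept with 5% mitochondrial UMIs or fewer and with over 200 genes detected but no more than 6000. Scrublet, run in Scanpy 1.11.5, removed 4.27% of PT cells at its automatic threshold and 5.98% of LN cells above the 94th percentile of its score, because the automatic threshold marked 0. Cells were clustered jointly on 2000 variable genes, without members or pathway genes, with 30 components, 15 neighbours and a Leiden resolution of 1. Clusters were named from marker lists by a scoring rule set after the data were seen.

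Counts were summed per class and library and divided by the class total. Shares of cells were also given after thinning each cell to 1000 UMIs. Ratios of LN over PT had 0.5 counts added, and the background at 2-fold was formed by genes that reached 100 UMIs in the PT or the LN. With 1 library per tissue no test across samples was possible, so no p-value is given, and intervals cover counting error only. All 10 members, fixed lists of pathway genes and the 5 genes most like the members were named. The members and lists were chosen with earlier results of these data known. Some genes of these lists are not reported here. The code was tested on simulated data. Numpy 2.4.6, SciPy 1.17.1, pandas 2.3.3 and Python 3.11.15 were used. Promoters came from RefSeq (GRCm38.p6) and gene models from GENCODE. Alternatives were the mean over cells, other limits on cells, doublets kept, libraries clustered apart, the highest cell left out and cells with B cell RNA left out.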

Additional observations from a re-analysis of the deposited data

How the results depend on the processing

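Of 58 alternatives of the 8 summed results, 18 stayed within the counting interval, 39 moved outside it, 9 of them by over 1.5-fold, and 1 reversed. No paired analysis was possible because each tissue had 1 library. As means over cells the sums were 35125 CPM in LN B cells, 25726 in LN DCs, 4708 in PT macrophages, 156 in HEC-like, 497 in other LN endothelial, 436 in PT endothelial and 254 in LN T cells, and the cancer cell log2 ratio was -0.77. With up to 10% mitochondrial UMIs they were 29998 in LN DCs, 5085 in PT macrophages, 217 in HEC-like and 399 in other LN endothelial cells. With no upper limit on genes they were 32941 in B cells, 201 in other LN endothelial, 239 in PT endothelial and 354 in T cells, and the ratio was -1.63. With doublets kept they were 26659 in LN DCs, 4459 in PT macrophages, 308 in other LN endothelial, 520 in PT endothelial and 509 in T cells, and the ratio was -0.97. With libraries clustered apart they were 25196 in LN DCs, 4691 in PT macrophages, 106 in HEC-like, 324 in other LN endothelial and 478 in T cells. Without the highest cell they were 30113 in LN DCs, 4762 in PT macrophages, 106 in HEC-like, 411 in other LN endothelial and 303 in T cells. The remaining alternatives were chosen after seeing the data, and the planned one with a longer list of B cell genes was not used here. Without cells of 2 or more UMIs of Cd79a, Cd79b and Ms4a1 they were 36.0 in HEC-like, 98.1 in other LN endothelial and 182 in T cells, and the ratio was -1.75. The ratio was -1.62 for the largest LN cancer cluster alone and 0.76, reversed, for the LN cancer cells outside it, and PT macrophages with the Mgl2-led cluster were at 6955 CPM. The cause of these shifts was not tested. With 23 LN macrophages, 36 PT Fscn1-led DCs and 61 HEC-like cells, single cells weigh on the sums, and the H2-O and Ciita counts limit what can be seen outside B cells.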
